A study of Mus musculus with 3 samples.

Results

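The features described here are the 1505 annotated loci that span under 100 bp, out of 36824 rows in the tables. They were chosen by the length of the locus on the mm9 genome build alone, without looking at expression. Another 262 rows under 100 bp were left out by the same rule because they lie on chromosome MT (23 rows), on chromosome 7 between 66.4 and 67.5 Mb (166 rows) or on chromosome 12 between 110.6 and 111.3 Mb (73 rows). The study sequenced polyadenylated RNA from 3 organs of male C57BL/6 mice at 11 weeks of age, namely brain, liver and the whole testis, with 1 strand-specific library each. Reads were single-end, 76 cycles long, and came from 3 lanes per library. No genetic change or treatment is named in the labels, and the 3 groups differ in tissue only. A single library per tissue leaves the variation between animals unmeasured, so sizes are given and no test was run.

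Loci of this length mostly hold small non-coding RNAs. Small nucleolar RNAs (snoRNAs) guide chemical modification of ribosomal and other RNAs, and in mammals most are cut out of introns of longer host genes. MicroRNA (miRNA) loci hold hairpins that are cut from longer transcripts, and the mature miRNA is far shorter than the hairpin. Neither kind of end product carries the poly(A) tail by which these libraries were selected, whereas the host transcripts usually do. An identifier match to the GENCODE M21 annotation was found for 956 members, and 549 had none. The matched members were 441 miRNA features, 186 snoRNAs or small Cajal body RNAs, 169 small nuclear RNAs, 86 joining or diversity segments of T cell receptor and immunoglobulin genes, 33 ribosomal RNA features, 13 pseudogenes and 28 of other kinds.

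The sequences of the snoRNAs with much of the signal are shown first, since their 2 conserved boxes identify them as the box C/D kind. Capitals mark TGATGA (C box) within the first 20 bases and CTGA (D box) within the last 15 bases, read on the gene's own strand from GENCODE M21 transcripts.
Snord21: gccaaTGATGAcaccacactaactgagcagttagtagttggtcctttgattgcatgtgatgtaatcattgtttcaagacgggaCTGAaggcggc
Snord83b: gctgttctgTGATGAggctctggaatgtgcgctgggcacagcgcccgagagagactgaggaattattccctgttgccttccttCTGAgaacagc
Snord12: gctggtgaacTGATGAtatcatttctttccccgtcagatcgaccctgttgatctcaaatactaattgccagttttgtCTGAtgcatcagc
Snord32a: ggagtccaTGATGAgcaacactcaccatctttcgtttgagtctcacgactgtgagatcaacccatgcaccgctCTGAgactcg
Snord47: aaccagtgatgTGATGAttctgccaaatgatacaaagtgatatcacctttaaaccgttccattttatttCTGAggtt
Snord60: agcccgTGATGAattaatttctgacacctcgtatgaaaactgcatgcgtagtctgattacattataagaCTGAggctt
Both boxes were present in these windows in 68 of 181 snoRNA or small Cajal body RNA members with a sequence (37.6%), in 21 of the 37 that were above 0 in a library, and in 0 of 398 miRNA members. Over all 891 members with a GENCODE sequence of the same length, 69 (7.74%) held both.

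Mature miRNA sequences from RefSeq (GRCm38.p6) are shown for the miRNA features that the results turn on, with the seed (bases 2 to 8) in capitals.
mmu-miR-147-5p: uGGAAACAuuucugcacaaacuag
mmu-miR-29b-3p: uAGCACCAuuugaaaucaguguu
mmu-miR-29c-3p: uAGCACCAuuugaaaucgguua
mmu-miR-9-5p: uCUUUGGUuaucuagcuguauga
mmu-miR-671-5p: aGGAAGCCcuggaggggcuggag
mmu-miR-678: gUCUCGGUgcaaggacuggagg
mmu-miR-1906: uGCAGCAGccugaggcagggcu
A mature sequence was found for 30 of the 41 miRNA features above 0. Only 1 seed was shared by 2 of these features, AGCACCA of miR-29b and miR-29c.

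Gm10180 and Mir682 are shown because their letters are those of ribosomal protein genes. Gm10180 is 78 bases long and had 0 mismatches to a stretch that lies wholly within the coding sequence of Rpl41. Mir682 is 96 bases long and had 1 mismatch, C48T, to the coding sequence of Rpl37a, counted from 1 at the 5′ end with the Mir682 base first and capitals at that position.
Gm10180: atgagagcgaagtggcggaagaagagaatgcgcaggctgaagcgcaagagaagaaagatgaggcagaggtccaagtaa
Mir682: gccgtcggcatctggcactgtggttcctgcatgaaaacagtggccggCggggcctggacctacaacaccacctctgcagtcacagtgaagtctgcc
Rpl37a coding sequence: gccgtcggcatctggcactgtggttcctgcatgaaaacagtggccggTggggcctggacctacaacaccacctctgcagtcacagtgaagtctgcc

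Tissue labels matched the marker genes. Snap25, a synaptic protein gene, was at 933 FPKM in brain and at 0.035 and 0.0864 in liver and testis. Alb, which encodes serum albumin, was at 20975 FPKM in liver and at 3.73 and 3.79 in brain and testis. Tnp1, a sperm chromatin protein gene, was at 14339 FPKM in testis and at 13.5 and 0.0586 in brain and liver. FPKM counts fragments per kilobase of feature and per 1000000 mapped fragments. Read from features with the same few fragments, the liver library was 2.14 times and the testis library 1.03 times as deep as the brain library.

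Most short features gave no signal. In brain 100 of 1505 members reached 1 FPKM (6.64%, exact 95% binomial interval 5.44 to 8.02%), in liver 67 (4.45%, 3.47 to 5.62%) and in testis 80 (5.32%, 4.24 to 6.57%). The intervals treat members as independent, which members with identical values are not, and they leave out variation between animals. Tissues cannot be compared by them. Over all rows the share was 40.3% for brain, 30.3% for liver and 42.9% for testis. Altogether 131 members were above 0 in any library, of which 43 were above 0 in all 3, 30 in exactly 2 and 58 in exactly 1. The remaining 1374 were listed at 0 in every library. Among the 131, the brain value was the highest for 90, the testis value for 29 and the liver value for 12.

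Signal began at the length of a read. None of the 571 members under 75 bp was above 0, and 1 of the 25 members of 75 bp was, Gm25894, a snoRNA feature with 11725 FPKM in brain, which stood for 1.4 fragments. From 76 bp, the length of a read, 130 of 909 members were above 0 (14.3%), with 13.3% at 76 to 83 bp, 15.7% at 84 to 91 bp and 13.7% at 92 to 99 bp. All 86 receptor and immunoglobulin segments were 72 bp or shorter and were listed at 0. Members at 98 and 99 bp, just inside the length limit, numbered 39 and 32 with 5 above 0 at each length. Rows at 100 bp, just outside it, numbered 43 with 1 above 0.

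The FPKM scale itself changed steeply over these lengths. One fragment was worth 2779 FPKM in the brain library at 76 bp, 545 at 79 bp, 144 at 84 bp, 56.0 at 90 bp and 22.1 at 99 bp. At 76 bp a 76-base read has 1 possible start within the feature, and at 99 bp it has 24. In liver 1 fragment was worth 0.467 times as much as in brain, and in testis 0.971 times as much. FPKM levels of members of different length therefore cannot be ranked against each other, and the number of fragments behind the values that the text dwells on is given. These fragments were obtained by dividing FPKM by the worth of 1 fragment at that length, and they need not be whole where a program divides reads between overlapping features. By this count 50 members had 10 or more fragments in brain, 24 in liver and 20 in testis, and 17, 20 and 20 of those above 0 rested on 1 fragment or less.

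**Figure D1:**
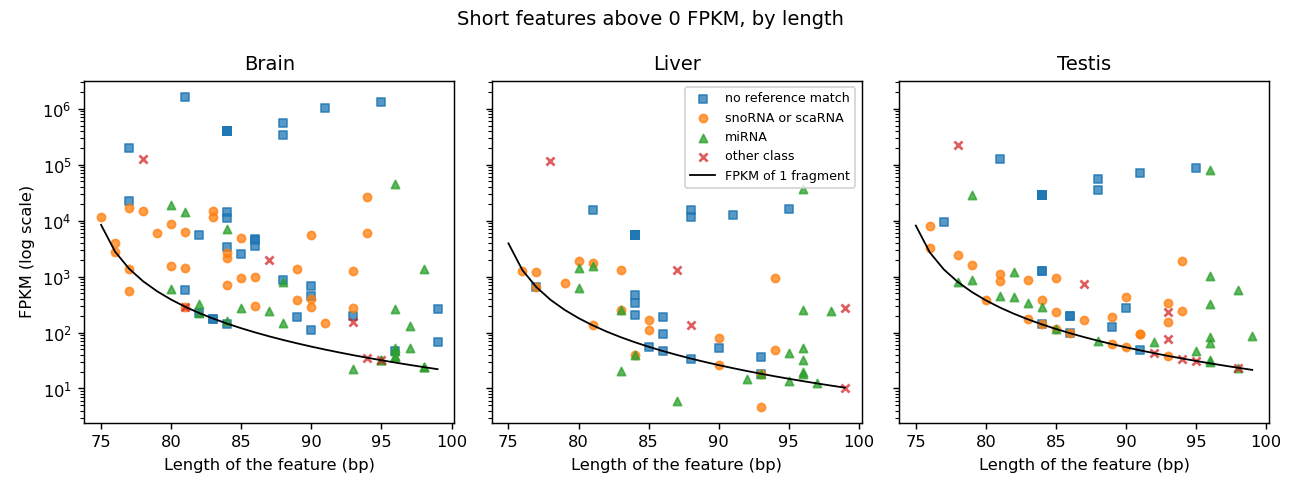
FPKM on a log scale against feature length in bp for every member above 0, 1 panel per library, with marker shapes for class. The black line is the FPKM that 1 fragment is worth at each length; in brain it falls from 2779 at 76 bp to 22.1 at 99 bp, and many members lie on or near it.

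Short features took a large part of the FPKM of each table and a small part of its fragments. Their share of all FPKM was 61.8% for brain, 21.6% for liver and 47.8% for testis. With only rows matched to the reference, a choice made after seeing the data, it was 29.2%, 15.3% and 30.3%, so that testis was above brain. The same members held 0.334%, 0.00757% and 0.0270% of the implied fragments. In these totals the fragments of rows that are no members were read from the width of the deposited intervals. The 2 ways of counting can differ widely, as for Mir568 in liver, with 0.25 fragments by worth and 8100 by interval. These shares are therefore rough. Features of 100 to 199 bp held another 19.5%, 8.70% and 12.2% of FPKM. Of the 585 such features above 0, 63.9% were highest in brain, compared with 68.7% of the members and 37.8% of features of 200 bp or more. The brain value was thus the highest for most features above 0 in both short length classes. Among the members this held for 37 of 39 without a reference match and for 30 of 38 snoRNAs or small Cajal body RNAs. Of 41 miRNA features above 0, 19 were highest in brain and 17 in testis. Whether short RNA was carried through library preparation to a different extent in the 3 tissues was not tested.

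Members were called higher or lower between 2 libraries at a 4-fold or larger difference of log2(FPKM + 1) with the authors' intervals apart. That rule called 49 members lower in testis than in brain (7.19% of all rows were called in that direction) and 2 higher (11.0% of all rows). Between brain and liver it called 53 members higher in brain (9.14% of all rows) and 4 lower (2.79% of all rows). Between testis and liver 18 members were higher in testis (15.2% of all rows) and 5 lower (3.82% of all rows). As a share of all 1505 members these counts were 3.26%, 0.133%, 3.52%, 0.266%, 1.196% and 0.332%, each below the share of all rows. The count of 18 became 11 with 8 rows of identical values counted once, and 5 with the libraries scaled to the median ratio of features of 200 bp or more. The pairs share libraries, so their counts are not independent of each other. The median difference over all members was 0 in each pair, since most were listed at 0 in both libraries. Of the 49 lower in testis than in brain, 27 had no reference match, 17 were snoRNAs or small Cajal body RNAs and 5 were miRNA features. Some of the 49 were called against a testis value listed at 0. Examples are Snord11, from 5 fragments in brain, and Snord80, from 0.41 of a fragment in brain. The 4 members lower in brain than in liver were Mup-ps5, Mir22, Mir21a and Mir568. The liver values of Mir22, Mir21a and Mir568, 13.6, 14.6 and 20.6 FPKM, came to less than 1 fragment each, and the deposited lower bounds lay close to them, at 13.1, 14.3 and 20.1. The brain estimate of Mir568, listed at 0, was marked as failed, and 3 members were lower in brain with estimates marked OK only.

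The snoRNAs formed the clearest named group. Among 186 snoRNA and small Cajal body RNA members, 32 were above 0 in brain, 18 in liver and 27 in testis, and 38 in any library. Their fragments summed to 1448 in brain, 120 in liver and 135 in testis, although the liver library was the deepest. Of the 38, 37 lay inside the locus of a longer feature, in 25 different hosts, and 34 of these had a host on the same strand by the reference annotation. The exception was Scarna17, a small Cajal body RNA, at 5996 FPKM in brain, with 764 in liver and 1587 in testis, which stood for 11, 3 and 3 fragments.

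Snord21 lies in Rpl5, a gene of the large ribosomal subunit, at chr5:108333574-108333667. It was at 26474 FPKM in brain, with 925 in liver and 1887 in testis, from 749, 56 and 55 fragments. The brain value was 28.6 times the liver value and 14.0 times the testis value, and its interval (24540 to 28409) did not overlap those of liver (677 to 1172) or testis (1378 to 2396). Its host Rpl5 was at 147 FPKM in brain, with 146 in liver and 103 in testis. The host thus differed by 1.01-fold between brain and liver and by 1.43-fold between brain and testis. Every stretch of Snord21 as long as a read is also part of an Rpl5 transcript. Reads of the snoRNA and of such a transcript therefore cannot be told apart.

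Snord83b, in the intron of Rpl3 at chr15:79908928-79909021, was at 5938 FPKM in brain, with 49.5 in liver and 240 in testis (168, 3 and 7 fragments). Rpl3 was at 131.5, 58.8 and 47.4 FPKM. The liver interval of the snoRNA reached down to 0, so no upper limit can be set on its brain to liver ratio, and the host differed 2.24-fold.

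Snord12 lies in Zfas1, a non-coding gene known as a snoRNA host, at chr2:166890776-166890865. It was at 5543 FPKM in brain, with 26.2 in liver and 435 in testis, from 99, 1 and 8 fragments. It was called higher in brain than in either other library, and in testis than in liver, the last not under median ratio scaling. Zfas1 was at 29.3, 8.81 and 4.94 FPKM, so the host was lower in testis than in liver while the snoRNA was higher there. Gm25878 and Gm23201, the other members inside Zfas1, stood for 7 and 6 fragments in brain and 4 and 3 in testis and were listed at 0 in liver. Every stretch of Snord12, Gm25878 and Gm23201 as long as a read is also part of a Zfas1 transcript. Reads of these snoRNAs and of such a transcript therefore cannot be told apart.

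Gas5, a non-coding gene whose introns are packed with box C/D snoRNAs, held 9 members, of which 6 were 76 bp or longer and 4 were above 0. Gm22357 was at 14974 FPKM in brain, with 1334 in liver and 854 in testis, from 84.6, 16.1 and 5.0 fragments. Snord47 was at 16771 FPKM in brain, from 12.1 fragments, and was listed at 0 in liver and testis. Mir5117, which the annotation types as a snoRNA, was at 2614, 39.7 and 382 FPKM, from 18.2, 0.6 and 2.7 fragments. Snord80 was at 563 FPKM in brain and 1214 in liver, below 2 fragments in each, and was listed at 0 in testis. Gas5 itself was at 590, 299 and 131 FPKM. Every window of 76 bases in Gm22357, Snord47 and Mir5117 is also part of a Gas5 transcript, so reads of the snoRNA and of such a transcript cannot be told apart.

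Rpl13a, another gene of the large ribosomal subunit, held 4 members and 3 were above 0. Snord32a was at 11684 FPKM in brain, with 248 in liver and 172 in testis, from 66, 3 and 1 fragments. Snord33 was at 2159 FPKM in brain and 140 in testis, from 15 fragments and 1, and was listed at 0 in liver. Every window of Snord33 is also part of an Rpl13a transcript. Snord35a had 5 fragments in brain and was listed at 0 in the other libraries. Rpl13a was at 106, 74.5 and 59.3 FPKM, a brain to testis ratio of 1.78; the testis value of Snord32a rests on 1 fragment.

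Rabggtb, which encodes a subunit of an enzyme that adds lipid anchors to Rab proteins, holds Snord45c and Gm24494. Snord45c was at 8563 FPKM in brain and 1898 in liver, from 22.1 and 10.5 fragments, and was listed at 0 in testis. Every window of Snord45c is also part of a Rabggtb transcript. Gm24494 was at 6341, 135 and 1119 FPKM, from 22, 1 and 4 fragments. The host was at 37.1, 27.5 and 8.27 FPKM. Snord111, in Sf3b3, a splicing factor gene, had 21 fragments in brain, 0 in liver and 1 in testis, with the host at 11.1, 4.82 and 10.1 FPKM. Snord60 was at 14812 FPKM in brain and 2396 in testis, from 18 and 3 fragments, and was listed at 0 in liver. It lies within the locus of Rab26 but on the other strand, and all 3 of its windows are part of Rab26os transcripts.

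Not every snoRNA was high in brain. Snord96a, in Rack1, a gene of a small-subunit ribosomal protein, was at 1441 FPKM in brain, with 1750 in liver and 839 in testis, from 5, 13 and 3 fragments, and its 3 intervals overlapped. Rack1 was at 133, 170 and 98.9 FPKM, with the same order of libraries. Every window of Snord96a is also part of a Rack1 transcript. Gm24339, in an intron of Cep295, a centriole gene, was listed at 0 in brain and liver and at 8093 FPKM in testis, from 3 fragments. Its interval reached down to 0. Cep295 was at 5.02, 1.55 and 46.2 FPKM. No snoRNA was called lower in brain than in liver or testis.

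Of the 16 members of this class with 10 or more fragments in brain, brain was above liver and above testis in all 16; this filter takes members through their brain level, so the count is a description only. 15 of them had a host, from 11 different hosts, and brain was above liver in the host of 14 and above testis in the host of all 15. For the 21 snoRNAs inside a host and above 0 in both brain and testis, the brain to testis ratio ran from 1.19 to 68.0 with a median of 6.18. The ratio of their hosts had a median of 2.40, and the snoRNA ratio exceeded that of its host in 16 of 21. For the 16 above 0 in both brain and liver, the median brain to liver ratio was 19.9 and that of the hosts 1.97, with the snoRNA ratio the larger in 14. Only 4 members of the class had 10 or more fragments in liver and 1 in testis, so most of these ratios rest on few fragments. For those 4, Snord21, Gm22357, Snord45c and Snord96a, the brain to liver ratio was 28.6, 11.2, 4.51 and 0.823. The hosts of the 21 include Rab26, on the other strand from Snord60. Several snoRNAs in both comparisons, Snord21 and Snord12 among them, share every window of 76 bases with a transcript of their host. Their reads cannot be told apart from those of that transcript. The 21 also include Gm23991 and Gm26247, whose estimates in brain and testis were marked as failed. Gm23991 is in the comparison of brain and liver as well. Several snoRNAs share a host, so these are not independent cases.

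**Figure D2:**
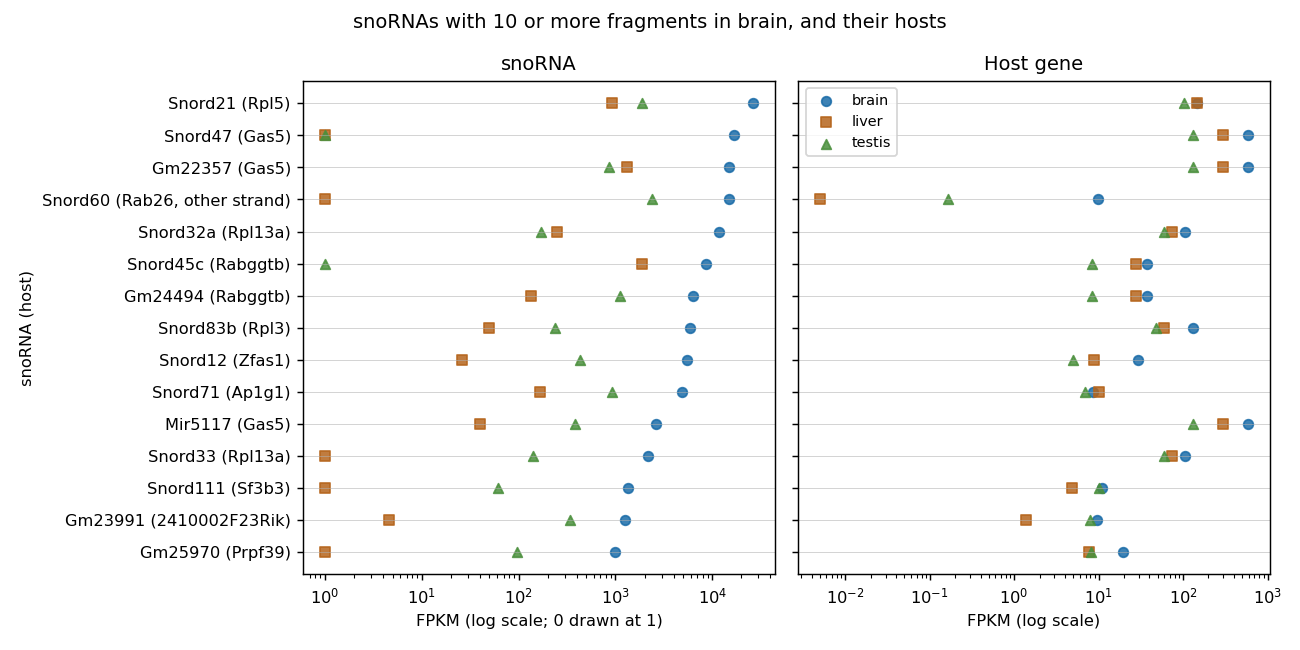
FPKM on a log scale of the 15 snoRNAs with a host and 10 or more fragments in brain (left, values of 0 drawn at 1) and of their host genes (right), with 1 point per library. The members were taken for their brain fragments, so their place to the right in brain follows in part from that choice; Snord21 is at 26474, 925 and 1887 and its host Rpl5 at 147, 146 and 103. Rab26, on the other strand from Snord60, spans 9.73, 0.005 and 0.165.

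Few miRNA features were above 0. Of 441 miRNA members 41 were above 0, with 25 above 0 in brain, 19 in liver and 22 in testis. Among those of 76 bp or more, 19 of 39 that lie in an exon of a longer gene on the same strand were above 0, against 6 of 147 in introns and 0 of 36 on the opposite strand of a gene. For 8 of 14 miRNA features that lie inside a pseudogene, a value above 0 was listed. Positions were read from the GRCm38 annotation by identifier.

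**Figure D3:**
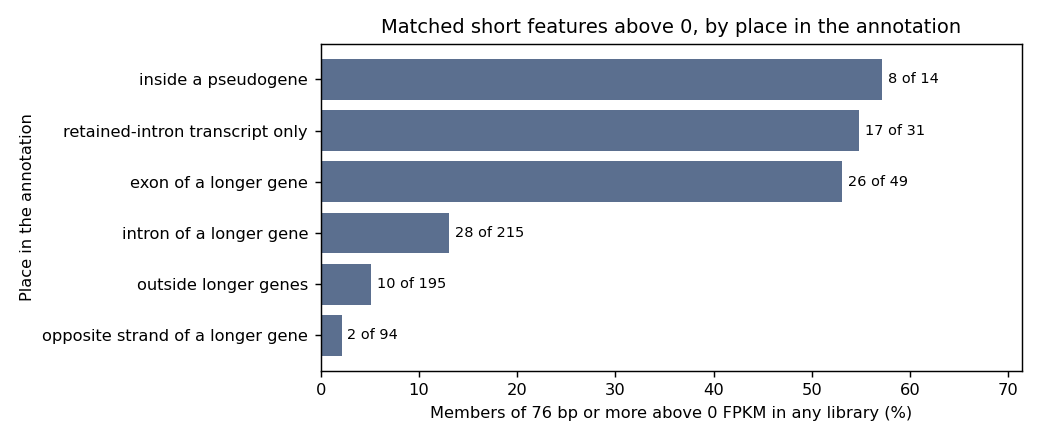
Percentage of matched members of 76 bp or more that were above 0 FPKM in any library, by their place in the GENCODE M21 annotation, with counts beside the bars. Members in exons (26 of 49), in transcripts with a retained intron (17 of 31) and in pseudogenes (8 of 14) reached over 50%, those in introns 13.0% (28 of 215).

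Mir147 was seen in testis alone. Its locus, chr2:122466539-122466617, was listed at 0 in brain and liver and at 28329 FPKM in testis, from 53.5 fragments, with an interval of 20586 to 36072. It was 1 of the 2 members called higher in testis than in brain. Its host AA467197 was at 0.184 FPKM in brain, with 0 in liver and 121 in testis, so both were seen at this level in testis alone. All 4 windows of 76 bases in Mir147 are part of an AA467197 transcript, and the miRNA hairpin cannot be told apart from that transcript. The miRNA of this locus is known from responses of macrophages to bacterial products. Only its 5p form is printed above, and that role is not tied to this form here.

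Mir29b-2 and Mir29c, whose mature 3p forms share a seed, lie next to each other in one transcript unit on chromosome 1. Mir29b-2 was at 13992 FPKM in brain and 1547 in liver, from 48.5 and 11.5 fragments, and was listed at 0 in testis. Mir29c was at 784 FPKM in brain, from 10.7 fragments, and was listed at 0 in liver and testis. The longer row around them was at 11.0, 0.678 and 0.328 FPKM. The brain to liver ratio was 9.05 for Mir29b-2 and 16.2 for the longer row. All windows of both are part of A330023F24Rik transcripts.

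Other miRNAs with a known role in neurons were faint. Mir9-2, from a family that acts in neural progenitors, was at 243 FPKM in brain, from 2.8 fragments, and was listed at 0 in the other libraries. Its host C130071C03Rik was at 6.42 FPKM in brain and 0 elsewhere. Mir124a-1, a neuronal miRNA locus, was at 270 FPKM in brain only, from 2.3 fragments, with the longer row around it at 24.6, 0.0017 and 0.00353 FPKM. Of 16 members on the list of brain miRNAs, 4 were above 0 in brain, 1 in liver and 0 in testis. Of the 16, 13 were 76 bp or longer. The 4 were Mir29b-2, Mir29c, Mir9-2 and Mir124a-1, and Mir29b-2 was the 1 above 0 in liver. Only Mir29b-2 and Mir29c of this list had 10 or more fragments in a library. The list was chosen with earlier results of these data known, so its count is a description only. None of 19 members on the list of testis miRNAs was above 0, although 10 were 76 bp or longer. Of 11 members on the liver list, 8 of them 76 bp or longer, only Mir21a was above 0. It was at 14.6 FPKM in liver and 68.6 in testis, both below 2 fragments. Of 7 let-7 members 1 was above 0, Mirlet7c-2 with 1 fragment in brain, and of 5 members of the miR-17 to miR-92 cluster only Mir19b-1, at 5.97 FPKM in liver, which is 0.15 of a fragment. Both U7 members were under 76 bp and listed at 0.

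Mir678, in an exon of Prmt2, an arginine methyltransferase gene, was at 6938 FPKM in brain, with 39.9 in liver and 282 in testis, from 48.2, 0.6 and 2.0 fragments. Prmt2 was at 19.2, 0.218 and 1.61 FPKM. Mir671, in an exon of Chpf2, a gene of chondroitin synthesis, was at 1350, 245 and 576 FPKM, from 55.9, 21.8 and 24.6 fragments, with Chpf2 at 4.31, 1.33 and 1.86. For Mir671 the brain to testis ratio was 2.34 and for Chpf2 2.32. Mir705, in Rab11fip5, was at 327, 0 and 1221 FPKM in brain, liver and testis, from 1.5 fragments in brain and 5.6 in testis, and its host at 8.93, 0.0397 and 30.9. Its brain and testis values did not differ enough for a call. Mir1903, in Nrp1, had 7.8 fragments in liver (1413 FPKM) and 1.5 in brain (591 FPKM), with overlapping intervals, and was listed at 0 in testis. Nrp1 was at 7.36 in brain, 6.92 in liver and 0.707 in testis.

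**Figure D4:**
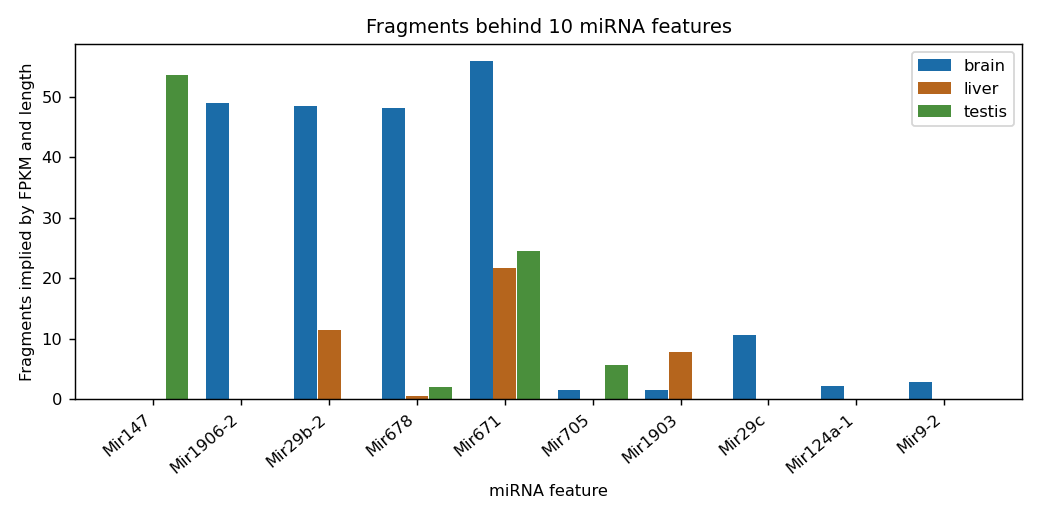
Fragments behind the FPKM of 10 miRNA features, with 1 bar per library (brain, liver, testis). Mir147 has 53.5 fragments in testis alone, Mir1906-2 49.0 in brain alone, and Mir671 is seen in all 3 libraries with 55.9, 21.8 and 24.6.

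Mir1906-2, on chromosome X, was at 18953 FPKM in brain, from 49.0 fragments, and was listed at 0 in liver and testis. All 5 of its windows are identical to parts of Meg3 and of Mir1906-1 on chromosome 12. Meg3, an imprinted non-coding gene expressed in neurons, was at 481 FPKM in brain, with 0.293 in liver and 8.68 in testis. Reads of the 2 loci cannot be told apart by sequence.

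Gm10180 and Mir682, with the letters of ribosomal protein genes, were above 0 in all 3 libraries. Gm10180, at chr9:24905848-24905925, was at 125083 FPKM in brain, with 115694 in liver and 224471 in testis, from 152, 301 and 281 fragments. The testis value was 1.79 times the brain value and 1.94 times the liver value, under the 4-fold needed for a call, and its interval (197690 to 251253) lay above both others. All 3 windows of Gm10180 occur in Rpl41, Gm10736 and Gm10076. Mir682, at chr13:75782494-75782589, was at 44729, 37057 and 78647 FPKM, from 1544, 2739 and 2797 fragments. It lies inside the processed pseudogene Gm4149, which was at 863, 663 and 1308 FPKM. All 21 windows of Mir682 are part of Gm4149. Rpl37a, which differs from Mir682 at 1 base, was at 213, 163 and 293 FPKM, the same order of libraries.

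A further 8 miRNA features of 96 bp differed from Mir682 at 2 to 15 positions. Gm24865, with G33A and G79A, was at 47.6, 31.7 and 29.5 FPKM in brain, liver and testis, and its pseudogene Gm4613 at 180, 133 and 293. Gm22758, with C6T and C45T, was at 37.2, 18.03 and 32.2 FPKM. Gm22759, with G33A and G56A, was listed at 0 in brain, at 19.5 FPKM in liver and at 322 in testis, from 1.4 and 11.5 fragments, and was the other member called higher in testis than in brain. The pseudogene around it, Gm14251, was at 1.19, 1.87 and 0.253 FPKM and so lowest in testis. All 21 windows of Gm22759 are part of Gm14251, so reads of the 2 rows cannot be told apart and their values are not separate measurements. The same holds for Gm24865 and Gm4613. Gm22426, with 7 differences, was at 261, 257 and 1012 FPKM, from 9 fragments in brain and 36 in testis. Gm22757 and Gm23192 were listed at 0 in all libraries.

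Gm11966 matched the coding sequence of Atp5j, a subunit gene of the mitochondrial ATP synthase, over all 87 bases. It was at 1962 FPKM in brain, with 1315 in liver and 745 in testis, from 23, 33 and 9 fragments, and Atp5j was at 441, 393 and 354. Mup-ps5, a pseudogene of the major urinary proteins that the liver secretes, was at 269 FPKM in liver, from 26 fragments, and was listed at 0 in brain and testis. It shares every window with Mup-ps1, Mup-ps6 and Mup-ps8. Of the 86 members of 76 bp or more with a sequence that were above 0, 54 shared at least 1 window of 76 bases with the transcript of another gene (62.8%), compared with 65 of 470 at 0 (13.8%). Both counts include hosts.

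The members without a reference match held most of the FPKM of the members in brain and testis, and under 50% of it in liver. Their share of the members' FPKM was 95.7% for brain, 41.0% for liver and 62.7% for testis. They held 96.8%, 49.4% and 69.3% of the members' fragments. Only 39 of the 549 were above 0. Those named next by position were chosen after their values were seen, and no sequence of them was used here. Of the 39, 14 reached 100000 FPKM in brain, and these alone held 94.8%, 40.5% and 62.3% of the members' FPKM.

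The row of the highest value, chr16:57391659-57391739, was at 1645450 FPKM in brain, with 15482 in liver and 124784 in testis, from 5709, 115 and 446 fragments. It lies inside the locus of Filip1l, which was at 1.23, 1.96 and 1.27 FPKM. The row at chr17:39984071-39984165 was at 1321290, 16256 and 86971 FPKM and had the most fragments of all members, 41382 in brain, 1090 in liver and 2806 in testis. It lies in no longer feature. The row at chr6:3151217-3151307 was at 1037850, 12473 and 71287 FPKM, from 20987, 540 and 1485 fragments, again in no longer feature. The row at chr9:123371050-123371137, inside Lars2, a mitochondrial aminoacyl-tRNA synthetase gene, was at 556642, 15432 and 54788 FPKM, from 7578, 450 and 768 fragments. Lars2 was at 677, 14.7 and 63.9 FPKM and had the same order of libraries.

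On chromosome 8 a tandem group held 9 members of 84 bp, between 126089862 and 126144217. They lie among 24 longer rows of one length, at a median step of 1696 bp from one start to the next. Of the 9, 8 had identical values, 392862 FPKM in brain, with 5579 in liver and 28218 in testis, each from 2730 fragments in brain and 83 in liver, so their reads cannot be told apart. The ninth was at 11225, 336 and 1257 FPKM, from 78, 5 and 9 fragments. Of the longer rows, which are no members, 15 had one identical value in brain, 46363 FPKM.

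Over the 14 highest rows, which hold 7 distinct sets of values, the brain to testis ratio ran from 9.67 to 21.3 with a median of 13.9, and the brain to liver ratio from 29.4 to 310.4 with a median of 70.4. The testis to liver ratio ran from 3.04 to 14.5. These rows were taken for their brain level, so the ratios are a description only. Gm10180, a matched member also above 100000 FPKM in brain, was highest in testis. The row at chr14:57312827-57312903, inside Mphosph8, was seen in brain only, at 22088 FPKM from 16 fragments. Its host was highest in testis, at 35.2 FPKM against 19.8 in brain.

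By locus, 736 of the 1505 members lay wholly inside a feature of 200 bp or more on either strand. Among members of 76 bp or more, this held for 91 of 130 above 0 and for 389 of 779 at 0. Because the strand setting of the authors' counting is not given in the sources used here, reads of a member and of a gene on the other strand cannot be told apart.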

How the data were processed

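Per the file headers, the authors deposited 1 table per library with FPKM per gene, a lower and an upper bound, a locus and an estimate status. Per the submitters' processing notes, TopHat 1.4.0, Bowtie 0.12.5, Cufflinks 2.0.0 and mm9 were used; the annotation, strand setting and filters are not given in the sources. Length is the span of the locus. Analysis used Python 3.11.15, pandas 2.3.3 and numpy 2.4.6. The worth of 1 fragment at each length was the FPKM value on which features with a whole number of fragments agree within 1%. That number was read from the width of the deposited intervals. Fragments obtained with this worth matched the intervals within 5% for 94 of 100 members in brain, 58 of 67 in liver and 78 of 80 in testis. Because the worth came from the same intervals, the match is no independent check. Since an exact 0 may be a failed estimate, such members are called listed at 0 and no fold is given against them. Calls did use these values. Where both bounds were also 0, a call rested on the level and the lower bound in the other library alone. Calls needed a 4-fold difference with a pseudocount of 1 FPKM and the bounds apart. The rule was run on simulated data, but changes were set there only in rows with many fragments. That run therefore says nothing about calls on few fragments. GENCODE M21 and RefSeq, on GRCm38, were joined by identifier or symbol. Hosts were rows of 200 bp or more. Intervals of shares cover counting error only. Named members followed a written rule on fragments, FPKM, size of difference, lists and hosts; the members and lists were chosen with earlier results of these data known. All columns of values were used.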

Additional observations from a re-analysis of the deposited data

How the results depend on the processing

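No paired analysis was possible because there is 1 library per tissue, and for the same reason no library could be left out. Without the intervals the calls rose to 22 higher and 78 lower in testis than in brain, 54 higher and 20 lower in testis than in liver, and 87 higher and 13 lower in brain than in liver. Median ratio scaling over features of 200 bp or more multiplied liver values by 2.19 and left 5 members higher in testis than in liver. With identical rows counted once, a choice made after seeing the data, this count was 11. With 10 or more fragments required, 3 members were lower in testis than in liver and 1 was lower in brain than in liver. That last count was also 1 with a pseudocount of 10 and 1 with a span under 90 bp. A span under 90 bp also left 1 member higher in testis than in brain. Members with a lower bound above 0 numbered 62 in brain, 35 in liver and 31 in testis. With 10 or more fragments there were 50, 24 and 20, and under 90 bp 66, 42 and 49. The share of FPKM in brain, liver and testis was 44.4%, 16.5% and 35.9% under 90 bp, and 0.334%, 0.00757% and 0.0270% as fragments. Fragments of rows that are no members were read there from the intervals. The share of FPKM was 52.5%, 19.3% and 42.2% with identical rows counted once, and 29.2%, 15.3% and 30.3% with matched rows only. Both choices were added after seeing the data. With estimates marked OK only it was 21.8% in liver and 48.2% in testis. On the same strand by the reference, 377 members lay in a host. Of 31 differences of named members, each under 4 alternatives of pseudocount and scaling, 0 reversed and 2 lost their call, both under median ratio scaling: Snord12 between testis and liver and Snord45c between brain and liver. The cause was not tested. The median member above 0 stood for 9.5 fragments in brain, 3.0 in liver and 2.96 in testis.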

Other observations

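Few members matched as ribosomal or small nuclear RNA features were above 0, although 30 and 104 of them were 76 bp or longer. The 549 members without a reference match have no type here, so features of these kinds among them are not counted. Of 33 ribosomal RNA features 3 were above 0, and Gm24009, in an intron of the kinase gene Srpk2, had the most fragments, with 4 in brain and 6 in testis. Srpk2 was at 29.4 FPKM in brain, with 2.38 in liver and 66.2 in testis. Of 169 small nuclear RNA features 6 were above 0, and Gm25654, in an intron of Aaed1, had 4 fragments in liver alone, where its host was also highest at 12.8 FPKM.

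The gene 2410002F23Rik held 4 members and all were above 0. Gm23991 was at 1257 FPKM in brain, with 4.62 in liver and 342 in testis, from 32, 0.3 and 9.0 fragments. Its estimates in brain and testis were marked as failed, as were those of Gm26247. The gene was at 9.59, 1.395 and 7.98 FPKM. Hspa8, a chaperone gene, also held 3 members that were above 0 in every library, with 87.0 fragments in brain, 9.0 in liver and 5.0 in testis. Hspa8 was at 1380 FPKM in brain, with 1039 in liver and 146 in testis.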
